A study of Homo sapiens with 24 samples.

Results

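Cells sense double-stranded RNA through a small set of receptors, and 10 genes of this system were followed by symbol in the count table of an siRNA study of bladder cancer cells, out of 58721 genes in all. They were the cytosolic RNA helicases DDX58 (RIG-I), IFIH1 (MDA5) and DHX58 (LGP2), the endosomal receptor TLR3, the kinase EIF2AK2 (PKR), the RNA-editing enzyme ADAR, the adaptor MAVS, the transcription factor IRF3, and the antiviral RNA-binding protein ZC3HAV1 (ZAP) with its partner TRIM25. They were picked out by symbol, with no threshold on a measured value, and all 10 passed the filter on low counts in both cell lines. IFIH1, DHX58 and TLR3 in RT112 and TLR3 in SCaBER had a siControl library under 10 counts. These passed the filter only with the help of libraries of other groups. RT112 is a bladder cancer line of the luminal papillary type, and SCaBER is one of the basal/squamous type. Each line was transfected with a control siRNA (siControl), an siRNA against the transcription factor FOXA1 (siFOXA1), one of 2 siRNAs against the transcription factor ZBED2 (siZBED2-1 and siZBED2-2), or siFOXA1 together with either ZBED2 siRNA. Every group had 2 libraries per line, which gave 12 groups and 24 libraries of 3′-end RNA sequencing. All groups shared the lipid transfection and a medium with serum, which the paper gives as RPMI for RT112 and DMEM for SCaBER. The control libraries had received an siRNA too, and a single FOXA1 siRNA was used, so every comparison with siControl sets one siRNA against another, and loss of FOXA1 and other effects of that siRNA cannot be told apart.

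RIG-I and MDA5 bind double-stranded RNA in the cytosol and signal through MAVS on mitochondria to kinases that activate IRF3, which switches on interferon and antiviral genes. LGP2 belongs to the same helicase family but lacks the signalling domains, and it tunes the other receptors. TLR3 reads double-stranded RNA inside endosomes, PKR phosphorylates the initiation factor eIF2 alpha and so lowers translation, ADAR edits adenosines in duplex RNA and thereby hides self RNA from MDA5 and PKR, and ZAP binds CpG-rich RNA and needs TRIM25 for its activity. Many of these genes are themselves induced by interferon, and an siRNA is a short synthetic double-stranded RNA, which is why the question arises whether a sensor moved with any siRNA or with the FOXA1 siRNA alone.

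The libraries held 4425404 to 6119210 counts. Levels are in CPM, which puts the counts of every library on one total, and a count of 3 stood at 0.49 to 0.678 CPM, which was taken as the floor of detection for counting error. FOXA1 itself was at 42.19 and 41.29 CPM with siControl in RT112 and at 6.84 and 9.458 CPM with siFOXA1. In SCaBER FOXA1 was low already with siControl, at 20 and 28 counts, and fell to 4 and 6 counts with siFOXA1. ZBED2 was lower with siZBED2-1 than with siControl in both lines (2.379 and 0 CPM against 22.19 and 16.88 in RT112, and 2.399 and 7.34 CPM against 19.07 and 19.17 in SCaBER). With siZBED2-2 ZBED2 was at 7.331 and 6.254 CPM in RT112, below both controls. In SCaBER it was at 8.861 and 16.01 CPM with siZBED2-2, so the second library there kept most of the control level. ZBED2 was also lower with siFOXA1 in RT112, at 5.432 and 1.505 CPM. Luminal markers were higher in RT112 for 9 of 11 genes and basal/squamous markers were higher in SCaBER for 8 of 10, as the lines are labelled. Leukocyte markers summed to at most 2.58 CPM in any RT112 library and 6.57 CPM in any SCaBER library. The share of counts on mitochondrial genes ran from 18.6% to 22.7% in RT112 libraries with the FOXA1 siRNA and from 8.22% to 17.8% in those without it, and from 9.29% to 12.9% over all SCaBER libraries; its part in the RT112 results was not tested. Replicates were least alike for siZBED2-2 of RT112, with a chi-square per gene of 22.1 where the pairs ran from 6.07 to 22.1. Replicates were numbered by experiment batch, and nothing states how far the cultures were separate, so p-values measure the spread between these libraries only.

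The interferon-stimulated response element is the DNA motif through which interferon-activated factors raise many sensor genes, and its core letters, GAAA with any 2 bases between it and a further GAAA, were looked for on both strands of the RefSeq promoter windows (build GRCh38.p14, 250 bases before to 50 bases after a start). Windows existed for 8 of the 10 genes, the exceptions being DHX58 and IRF3, and 3 of the 8 held the letters, against 3.57% of all windows and 4.38% of all genes with a window. The stretches around the matches are shown because they hold the letters and include both the gene of the 10 with the highest siFOXA1 fold change in each line, IFIH1, and a gene with no call, TLR3, with the matched letters in capitals and the sequence 5′ to 3′ on the strand of the gene. The IFIH1 stretch is chr2:162318666-162318873 on the minus strand and held 3 matches, a pair that overlap at 159 and 153 bases before the start and 1 at 21 bases before it. The TLR3 stretch is chr4:186069122-186069175 on the plus strand with 1 match at 4 bases before the start, and the EIF2AK2 stretch is chr2:37156961-37157016 on the minus strand with 1 match at 6 bases before the start.
IFIH1: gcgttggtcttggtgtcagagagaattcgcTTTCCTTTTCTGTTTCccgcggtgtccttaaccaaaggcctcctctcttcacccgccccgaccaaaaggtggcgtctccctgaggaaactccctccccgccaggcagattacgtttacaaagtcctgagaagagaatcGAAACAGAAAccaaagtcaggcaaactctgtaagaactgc
TLR3: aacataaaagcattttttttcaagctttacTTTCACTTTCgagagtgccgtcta
EIF2AK2: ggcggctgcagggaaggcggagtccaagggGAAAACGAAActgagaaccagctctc
The windows of DDX58 (under its RefSeq symbol RIGI), ADAR, MAVS, ZC3HAV1 and TRIM25 did not hold these letters, which says nothing on other forms of the motif or on sequence outside the windows.

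No sensor or adaptor was called higher than siControl with each of siFOXA1, siZBED2-1 and siZBED2-2 in either line. Of all genes, 0.098% met this rule in RT112 and 0.251% in SCaBER. The rule also needed a call with siZBED2-2, which gave few. No library went without an siRNA, so a rise shared by siControl and the others could not be seen. Whether the sensors respond to siRNA as such was therefore not tested. Called here means an adjusted p under 0.05 in edgeR's quasi-likelihood test with Benjamini-Hochberg adjustment over all genes tested. With siFOXA1 against siControl, 4 of the 10 genes rose in RT112 (IFIH1, DDX58, EIF2AK2 and IRF3), where 11.3% of all genes were called higher and 11.9% lower. In SCaBER 6 of the 10 rose (IFIH1, DDX58, DHX58, EIF2AK2, ADAR and ZC3HAV1), where 8.71% of all genes were called higher and 9.12% lower. None of the 10 was called lower by edgeR or DESeq2, with 1 (MAVS in SCaBER) at an unadjusted p under 0.05. With siZBED2-1 a single gene, IFIH1 in RT112, was called higher, where 4.35% of all genes were called higher. None of the 10 was called higher with siZBED2-1 in SCaBER, where 2.19% of all genes were, with 1 of the 10 higher and 3 lower (ADAR, MAVS and TRIM25) at an unadjusted p under 0.05 and 0 called by DESeq2. siZBED2-2 gave no call in either line by edgeR or DESeq2, with 0 higher and 1 lower (TRIM25 in SCaBER) at an unadjusted p under 0.05, and few genes of any kind were called higher with it (0.136% in RT112 and 0.427% in SCaBER). The median log2 fold change of the 10 genes with siFOXA1 was 0.716 in RT112 and 0.786 in SCaBER, beside medians of -0.015 and -0.016 over all genes tested. The RT112 count of 4 depended on single libraries. Without siControl replicate 2, DDX58 and IRF3 no longer passed, at log2 differences of 1.58 and 0.703. Without siFOXA1 replicate 1, EIF2AK2 no longer passed, at 0.573.

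**Figure D1:**
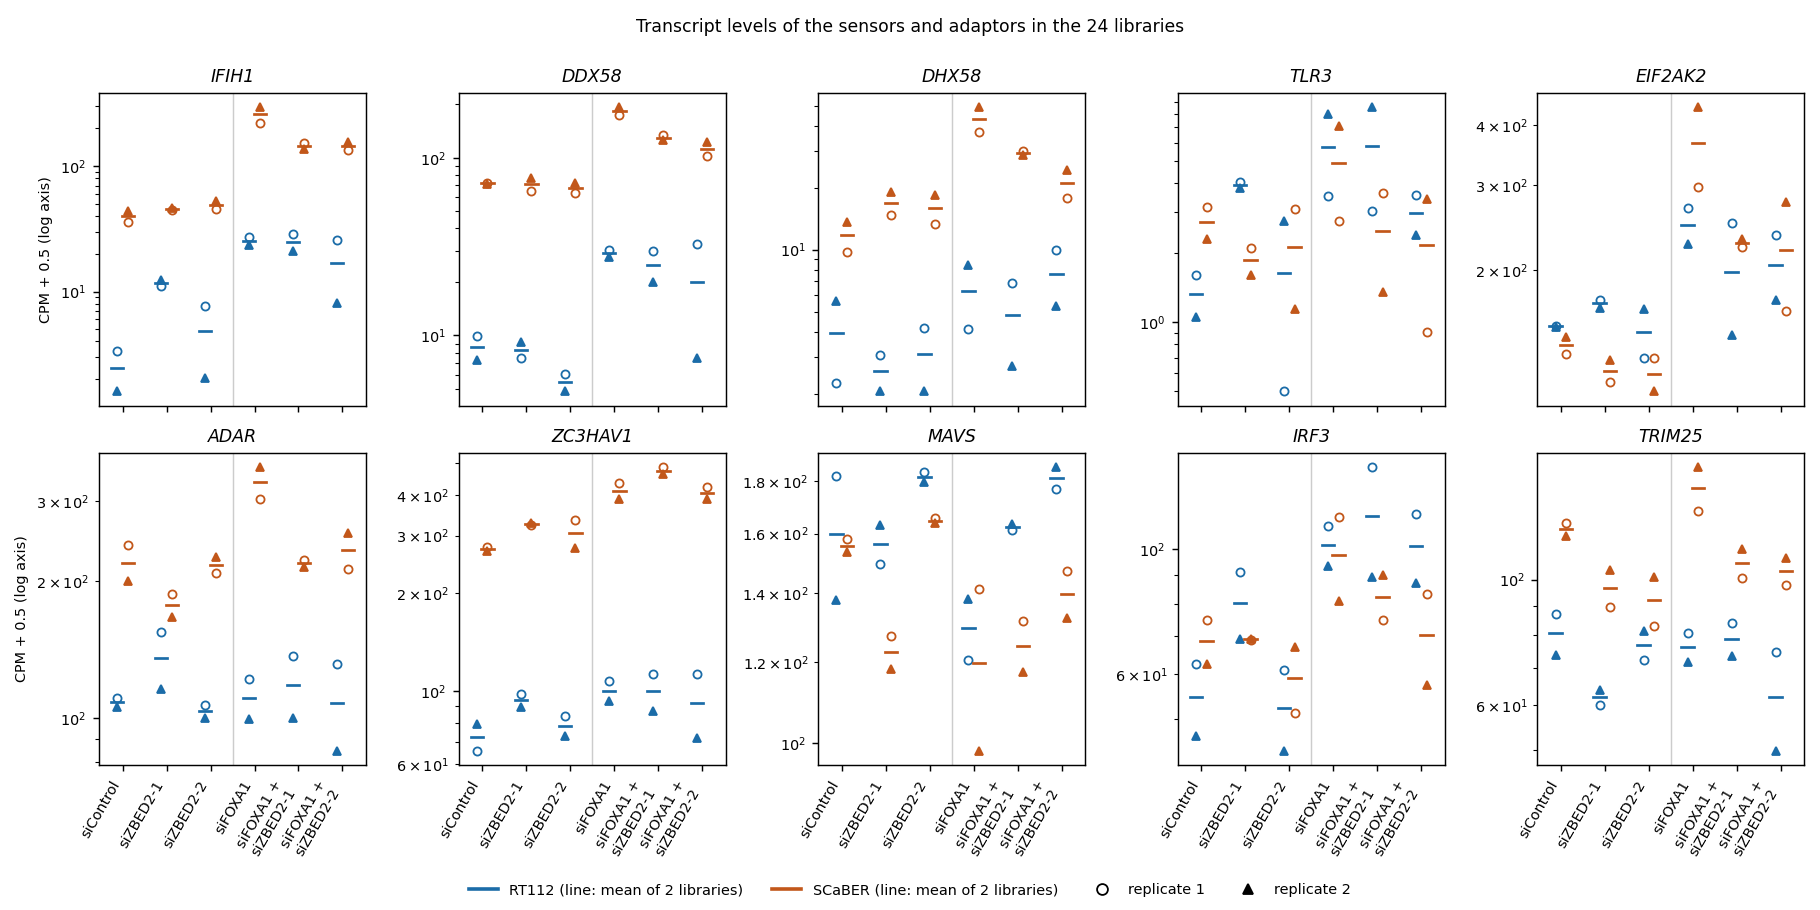
Level of the 10 genes in every library, in CPM on a log axis, by siRNA treatment, with RT112 and SCaBER shown separately and a point per library (2 per group). IFIH1 and DDX58 sit higher in the libraries that received the FOXA1 siRNA in both lines, apart from the second siFOXA1 with siZBED2-2 library of RT112, while MAVS and TRIM25 differ by less than 2-fold between any libraries of a line.

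A gene was counted as rising with the FOXA1 siRNA alone when it was called higher against siControl, was not called higher with either ZBED2 siRNA, and was also called higher when siFOXA1 was compared directly with each ZBED2 siRNA. By that rule there were 2 such genes in RT112, DDX58 and EIF2AK2, and 5 in SCaBER, IFIH1, DDX58, DHX58, EIF2AK2 and ADAR. The same rule was met by 4.4% of all genes tested in RT112 and by 3.83% in SCaBER. Directly against siZBED2-1, siFOXA1 raised 2 of the 10 genes in RT112 (9.88% of all genes) and 6 in SCaBER (8.8% of all genes). Against siZBED2-2 it raised 4 in RT112 (10.9% of all genes) and 8 in SCaBER (8.37% of all genes), and 1 gene in each line, MAVS, was lower (11.7% and 8.93% of all genes were lower). These comparisons share the siFOXA1 libraries, so their counts are not independent of one another. The RT112 count against siZBED2-1 went to 0 without siZBED2-1 replicate 1 and to 1 without siFOXA1 replicate 1, without siZBED2-1 replicate 2, or with scaling by library size alone, so the RT112 class depended on single libraries. Against siZBED2-2 EIF2AK2 in RT112 was lost without siZBED2-2 replicate 1 (adjusted p = 0.0724). The 5 SCaBER genes kept their calls against each ZBED2 siRNA on leaving out any library. Over siControl, ADAR lost its call without siControl replicate 2 (log2 difference 0.464) and then left the class. DHX58 against siZBED2-1 was at an edgeR adjusted p of 0.0502 in a fit of all 24 libraries together.

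IFIH1 encodes MDA5, the receptor for long duplex RNA (ENSG00000115267, chr2:162267074-162318684 in GRCh38.p14). In RT112 it was close to the floor with siControl, at 2.857 and 1.101 CPM, which were 13 and 6 counts. With siZBED2-1 the 2 libraries had 10.51 and 11.95 CPM, with siZBED2-2 they had 7.138 and 1.564 CPM, and with siFOXA1 26.76 and 23.0 CPM. The siZBED2-1 and siFOXA1 libraries were thus all above both controls, those of siFOXA1 were the highest, and the siZBED2-2 pair overlapped the controls. The rise over siControl was 12.7-fold with siFOXA1 (log2 fold change 3.67, SE 0.63, adjusted p = 0.000115) and 5.74-fold with siZBED2-1 (2.52, SE 0.64, adjusted p = 0.0113), and with siZBED2-2 the log2 difference was 1.14 (SE 0.67, adjusted p = 0.942). The siFOXA1 value was 4.47 without siControl replicate 1 and 3.11 without siControl replicate 2. The siZBED2-1 value was 3.32 without siControl replicate 1, and it was lost without siControl replicate 2, at 1.95 and an adjusted p of 0.128. siFOXA1 exceeded siZBED2-2 by a log2 difference of 2.53 (SE 0.57, adjusted p = 0.00192), which was 3.97 without siZBED2-2 replicate 1 and 1.8 without siZBED2-2 replicate 2. Its excess over siZBED2-1 was 1.15 (SE 0.53, adjusted p = 0.136) and passed the threshold in 1 alternative, a fit of all 24 libraries together (adjusted p = 0.0241). Between the 2 ZBED2 siRNAs the log2 difference was 1.38 (SE 0.58, adjusted p = 0.166), and with the replicate number as a block it was 1.59 and passed (adjusted p = 0.0373), as did the 2.82 without siZBED2-2 replicate 1 (adjusted p = 0.0134).

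In SCaBER IFIH1 started about 20-fold above RT112, at 35.69 and 43.52 CPM with siControl. It was at 43.99 and 45.88 CPM with siZBED2-1, at 45.04 and 52.68 CPM with siZBED2-2, and at 220.9 and 296.5 CPM with siFOXA1. Here the ZBED2 siRNA libraries were little above the controls and far below those of siFOXA1. The siFOXA1 rise over siControl was 6.53-fold (log2 fold change 2.71, SE 0.18, adjusted p = 5.1e-13), that over siZBED2-1 was 2.52 on the log2 scale (SE 0.18, adjusted p = 1.15e-12), and the differences of siZBED2-1 and siZBED2-2 from siControl were 0.18 (SE 0.18, adjusted p = 0.708) and 0.31 (SE 0.18, adjusted p = 0.772).

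DDX58 encodes RIG-I, the receptor for short duplexes with a 5′ triphosphate end (ENSG00000107201, chr9:32455302-32526196). Its RT112 levels were 9.449 and 6.79 CPM with siControl, 6.94 and 8.628 CPM with siZBED2-1, 5.595 and 4.343 CPM with siZBED2-2, and 29.57 and 27.3 CPM with siFOXA1. Unlike IFIH1, DDX58 stayed within or below the control range with both ZBED2 siRNAs. It rose 3.51-fold with siFOXA1 (log2 fold change 1.81, SE 0.49, adjusted p = 0.00819), by 1.87 on the log2 scale over siZBED2-1 (SE 0.49, adjusted p = 0.00772) and by 2.51 over siZBED2-2 (SE 0.51, adjusted p = 0.000683). In SCaBER it was at 71.58 and 70.87 CPM with siControl, 64.38 and 76.89 CPM with siZBED2-1, 63.13 and 71.58 CPM with siZBED2-2, and 173.3 and 192.6 CPM with siFOXA1. Only the siFOXA1 pair stood apart among these 4 groups of SCaBER, at a 2.57-fold rise over siControl (log2 fold change 1.36, SE 0.16, adjusted p = 1.14e-07).

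DHX58 encodes LGP2 (ENSG00000108771, chr17:42101411-42112714) and had few counts in RT112. There its siControl values of 1.758 and 5.138 CPM overlapped the 3.621 and 7.953 CPM of siFOXA1, and the log2 difference of 0.73 did not pass the test (SE 0.87, adjusted p = 0.607). In SCaBER it was at 9.254 and 13.18 CPM with siControl, 14.2 and 18.53 CPM with siZBED2-1, 12.74 and 17.93 CPM with siZBED2-2, and 36.71 and 48.77 CPM with siFOXA1. The siFOXA1 libraries were the highest, and those of the ZBED2 siRNAs lay at or somewhat above the controls. LGP2 transcript rose 3.81-fold with siFOXA1 (log2 fold change 1.93, SE 0.32, adjusted p = 2.28e-05), while siZBED2-1 differed from siControl by 0.55 (SE 0.32, adjusted p = 0.426).

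TLR3, the endosomal receptor (ENSG00000164342, chr4:186069156-186088073), was barely detected, so its differences were poorly resolved. In RT112 it was at 1.099 and 0.5505 CPM with siControl (5 and 3 counts), at 3.569 and 3.318 CPM with siZBED2-1, at 0 and 2.258 CPM with siZBED2-2 (0 and 13 counts), and at 3.018 and 7.523 CPM with siFOXA1. Both siFOXA1 and both siZBED2-1 libraries were above the controls, but the log2 differences of 2.65 (SE 1.26, adjusted p = 0.135) and 2.05 (SE 1.25, adjusted p = 0.385) did not pass. In SCaBER TLR3 lay between 0.4032 and 6.578 CPM over all 12 libraries and siFOXA1 differed from siControl by 0.98 (SE 1.15, adjusted p = 0.636).

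EIF2AK2 encodes PKR (ENSG00000055332, chr2:37099210-37156980) and was expressed at a like level in both lines with siControl, at 152.7 and 151.9 CPM in RT112 and 133.0 and 144.9 CPM in SCaBER. In RT112 it was at 173.1 and 166.6 CPM with siZBED2-1, 130.8 and 165.7 CPM with siZBED2-2 and 269.0 and 226.3 CPM with siFOXA1. The siFOXA1 pair lay above all others of these 4 groups, a 1.63-fold rise over siControl (log2 fold change 0.70, SE 0.20, adjusted p = 0.00983) that fell just short without siFOXA1 replicate 1 (0.573, adjusted p = 0.0577). Directly against siZBED2-1 the RT112 excess was 0.54 (SE 0.19, adjusted p = 0.0482), at the edge of the threshold, and it was 0.465 with an adjusted p of 0.111 when scaled by library size alone. In SCaBER PKR transcript was at 116.6 and 129.4 CPM with siZBED2-1, 130.5 and 111.4 CPM with siZBED2-2 and 297.3 and 435.5 CPM with siFOXA1. All ZBED2 siRNA libraries were under the controls there, and siFOXA1 gave a 2.64-fold rise over siControl (log2 fold change 1.40, SE 0.18, adjusted p = 3.82e-07).

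ADAR makes an interferon-inducible long form and a constitutive short form that share the 3′ end, so the counts sum both (ENSG00000160710, chr1:154582057-154627997). In RT112 it was at 110.5 and 105.3 CPM with siControl and 121.5 and 99.31 CPM with siFOXA1, which overlapped, and the log2 difference was 0.03 (SE 0.20, adjusted p = 0.933), or -0.0615 when scaled by library size alone. With siZBED2-1 the RT112 libraries were at 154.7 and 115.7 CPM, both above the controls, at a log2 difference of 0.33 (SE 0.20, adjusted p = 0.398). In SCaBER ADAR was at 239.5 and 199.8 CPM with siControl, 187.1 and 166.3 CPM with siZBED2-1, 207.9 and 225.9 CPM with siZBED2-2, and 303.2 and 357.0 CPM with siFOXA1. The siFOXA1 pair of SCaBER was the highest and that of siZBED2-1 the lowest. The rise over siControl was 1.5-fold (log2 fold change 0.59, SE 0.14, adjusted p = 0.00205) and over siZBED2-1 it was 0.90 on the log2 scale (SE 0.14, adjusted p = 1.01e-05). Without siControl replicate 2 the first of these was 0.464 with an adjusted p of 0.0656.

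ZC3HAV1 (ZAP, ENSG00000105939, chr7:139043515-139109720) was at 276.3 and 268.7 CPM with siControl in SCaBER, 324.1 and 328.7 CPM with siZBED2-1, 335.2 and 274.0 CPM with siZBED2-2 and 435.8 and 387.6 CPM with siFOXA1. All ZBED2 siRNA libraries but 1 were above both controls and all were below siFOXA1, so they lay between siControl and siFOXA1. It rose 1.51-fold with siFOXA1 (log2 fold change 0.60, SE 0.12, adjusted p = 0.000499), and the excess over siZBED2-1 was 0.34 (SE 0.12, adjusted p = 0.0521). With the replicate number as a block that excess was 0.332 with an adjusted p of 0.0229, and ZC3HAV1 would then join the 5 SCaBER genes that rose with the FOXA1 siRNA alone; DESeq2 (adjusted p = 0.0253) and its size factors in edgeR (adjusted p = 0.0478) gave the same call. In RT112 the siControl values were 65.04 and 78.73 CPM and those of siFOXA1 107.0 and 93.08 CPM, a log2 difference of 0.48 (SE 0.21, adjusted p = 0.101) that passed in the fit of all 24 libraries (0.488, adjusted p = 0.038), which took the RT112 count with siFOXA1 from 4 to 5.

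TRIM25, the ubiquitin ligase that works with ZAP and with RIG-I (ENSG00000121060, chr17:56887909-56914049), was not called against siControl with any single siRNA. In SCaBER it was at 125.4 and 119.0 CPM with siControl and 131.5 and 157.6 CPM with siFOXA1, but at 88.97 and 103.7 CPM with siZBED2-1 and 82.33 and 100.7 CPM with siZBED2-2. The ZBED2 siRNA libraries all lay under the controls, with log2 differences of -0.34 (adjusted p = 0.277) and -0.42 (adjusted p = 0.449) that did not pass. siFOXA1 was above siZBED2-1 by 0.58 (SE 0.16, adjusted p = 0.00965) and above siZBED2-2 by 0.66 (SE 0.16, adjusted p = 0.00359), the first of which was lost without siZBED2-1 replicate 1 (adjusted p = 0.148) or siFOXA1 replicate 2 (adjusted p = 0.161) and the second without siZBED2-2 replicate 1 (adjusted p = 0.0926) or siFOXA1 replicate 2 (adjusted p = 0.0814). A comparison of siFOXA1 with a ZBED2 siRNA alone would thus count TRIM25 as raised, although its siFOXA1 level differed from siControl by 0.24 (SE 0.16, adjusted p = 0.342).

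MAVS, the mitochondrial adaptor of RIG-I and MDA5 (ENSG00000088888, chr20:3846834-3876118), was not called higher than siControl with any single siRNA. With siFOXA1 it was at 120.1 and 137.8 CPM in RT112 against 181.5 and 137.5 CPM with siControl, a log2 difference of -0.31 (SE 0.16, adjusted p = 0.174). In SCaBER the values were 140.7 and 97.76 CPM against 157.5 and 152.9 CPM, so both siFOXA1 libraries were under both controls, at a log2 difference of -0.38 (SE 0.16, adjusted p = 0.0978). That difference passed with the replicate number as a block (-0.39, adjusted p = 0.0457), with scaling by library size alone (-0.455, adjusted p = 0.041) and without siFOXA1 replicate 1 (-0.664, adjusted p = 0.00906). Against siZBED2-2 the fall passed in both lines (-0.49, SE 0.16, adjusted p = 0.0249 in RT112 and -0.46, SE 0.16, adjusted p = 0.0392 in SCaBER), and in each line it was lost on leaving out any of 3 of the 4 libraries compared.

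IRF3, the transcription factor at the end of the MAVS and TLR3 pathways (ENSG00000126456, chr19:49659572-49665857), was at 61.97 and 46.06 CPM with siControl in RT112. It stood at 90.41 and 68.8 CPM with siZBED2-1, 60.38 and 43.26 CPM with siZBED2-2 and 109.4 and 92.86 CPM with siFOXA1. As for IFIH1 in this line, the siZBED2-1 libraries lay between the controls and siFOXA1, and those of siZBED2-2 overlapped the controls. IRF3 rose 1.88-fold with siFOXA1 (log2 fold change 0.91, SE 0.23, adjusted p = 0.00548), and with siZBED2-1 the log2 difference was 0.56 (SE 0.23, adjusted p = 0.15), which passed with the replicate number as a block (adjusted p = 0.0373). The excess of siFOXA1 over siZBED2-1 was 0.34 (SE 0.23, adjusted p = 0.319) and that over siZBED2-2 was 0.97 (SE 0.23, adjusted p = 0.00322, or 0.0553 without siZBED2-2 replicate 2). Between the ZBED2 siRNAs the log2 difference was 0.62 (SE 0.23, adjusted p = 0.111), and with the block it was called (adjusted p = 0.0204). None of the 10 genes was called higher with siZBED2-1 than with siZBED2-2 by edgeR or DESeq2 in RT112 (3.77% of all genes were), with 2 at an unadjusted p under 0.05, or in SCaBER (1.61%), with 0. In SCaBER IRF3 was at 113.6 and 80.29 CPM with siFOXA1 against 74.22 and 62.09 CPM with siControl, a log2 difference of 0.51 (SE 0.20, adjusted p = 0.0806) that passed without siFOXA1 replicate 2 (0.735, adjusted p = 0.02).

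**Figure D2:**
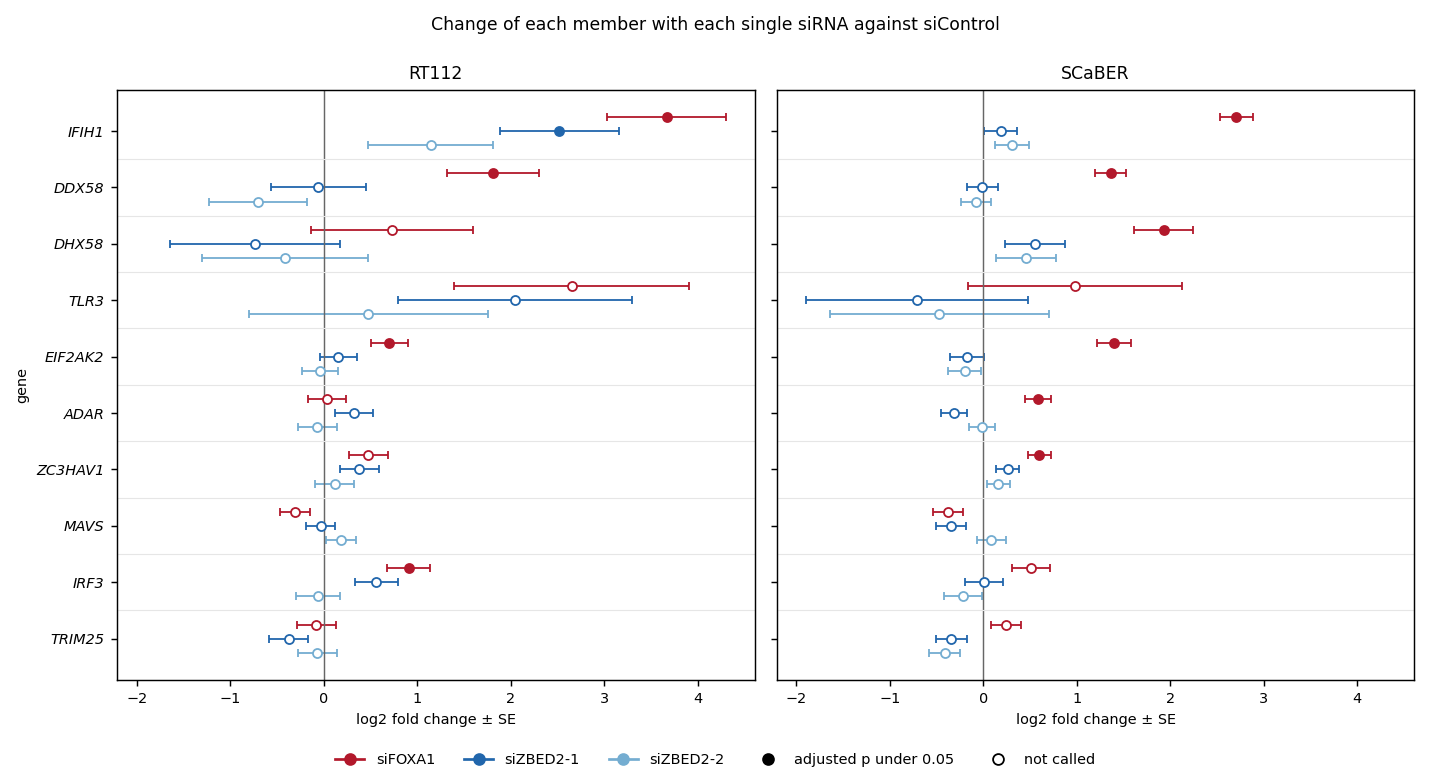
Log2 fold change of the 10 genes with each single siRNA against siControl, with bars of 1 SE from edgeR and filled points for an adjusted p under 0.05, in RT112 and SCaBER. The siFOXA1 points of IFIH1 lie at 3.67 and 2.71, and IFIH1 with siZBED2-1 in RT112, at 2.52, is the one filled point of a ZBED2 siRNA.

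The double transfections asked whether the FOXA1 siRNA also raised the genes where a ZBED2 siRNA was present. IFIH1 in SCaBER was at 151.6 and 135.9 CPM with siFOXA1 and siZBED2-1 and at 133.5 and 156.0 CPM with siFOXA1 and siZBED2-2. All 4 double libraries were above every library without the FOXA1 siRNA and below both libraries with siFOXA1 alone. Its rise was 1.68 on the log2 scale over siZBED2-1 (SE 0.17, adjusted p = 4.35e-08) and 1.56 over siZBED2-2 (SE 0.17, adjusted p = 2.28e-07). In the same line DDX58 rose by 0.87 over siZBED2-1 (SE 0.16, adjusted p = 0.000593) and by 0.73 over siZBED2-2 (SE 0.16, adjusted p = 0.00657). The corresponding values of EIF2AK2 were 0.89 (SE 0.18, adjusted p = 0.00161) and, over siZBED2-2, 0.86 (SE 0.18, adjusted p = 0.00321). ZC3HAV1 passed over siZBED2-1 (0.54, SE 0.12, adjusted p = 0.00479), and over siZBED2-2 its difference of 0.41 had an adjusted p of 0.056, or 0.0137 with the replicate number as a block. The ZC3HAV1 call over siZBED2-1 was lost without either siZBED2-1 library or without replicate 1 of the double, at adjusted p of 0.0554 to 0.0856. DHX58 was called in neither (0.82, adjusted p = 0.123, and 0.42, adjusted p = 0.574).

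In all, 4 of the 10 genes rose over siZBED2-1 in SCaBER, where 3.05% of all genes did, and 3 rose over siZBED2-2, where 1.65% did. The second count was 1 without the double replicate 2, when DDX58 (adjusted p = 0.169) and EIF2AK2 (adjusted p = 0.328) were lost. On their own, DDX58 was lost without siZBED2-2 replicate 1 (adjusted p = 0.104) and EIF2AK2 without siZBED2-2 replicate 2 (adjusted p = 0.0551). The count of 4 over siZBED2-1 was 2 in a fit of all 24 libraries together, with DDX58 at an adjusted p of 0.117.

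In RT112 the doubles gave 1 call over siZBED2-1, DDX58 (29.32 and 19.42 CPM, log2 difference 1.65, SE 0.49, adjusted p = 0.0315), where 4.89% of all genes were called higher. There IFIH1 was at 28.47 and 20.43 CPM, and its difference from siZBED2-1 of 1.12 did not pass (SE 0.53, adjusted p = 0.202). Over siZBED2-2 there were 3 calls, IFIH1 (1.93, SE 0.57, adjusted p = 0.0341), DDX58 (1.97, SE 0.51, adjusted p = 0.015) and IRF3 (0.96, SE 0.23, adjusted p = 0.00959), where 4.44% of all genes were called higher. The 2 libraries of siFOXA1 with siZBED2-2 differed widely in RT112, at 25.44 and 7.589 CPM for IFIH1 and 32.02 and 6.957 CPM for DDX58, so that replicate 2 was among the libraries without the FOXA1 siRNA for both genes. Without replicate 1 of this double, or without siZBED2-2 replicate 2, none of the 3 passed. On leaving out 1 library, the IFIH1 difference ran from 0.813 to 3.38 and that of DDX58 from 0.484 to 2.69. The DDX58 call over siZBED2-1 was likewise lost without siZBED2-1 replicate 1 (adjusted p = 0.168), siZBED2-1 replicate 2 (adjusted p = 0.0981) or replicate 1 of the double (adjusted p = 0.164).

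Taking the 6 SCaBER libraries with the FOXA1 siRNA against the 6 without it, the ranges of 4 genes did not overlap. They were IFIH1 (133.5 to 296.5 against 35.69 to 52.68 CPM), DDX58 (101.4 to 192.6 against 63.13 to 76.89 CPM), EIF2AK2 (163.5 to 435.5 against 111.4 to 144.9 CPM) and ZC3HAV1 (387.6 to 487.2 against 268.7 to 335.2 CPM), where 3.42% of all genes were so separated upwards. In RT112 none of the 10 was separated in this way, where 5.13% of all genes were. IFIH1 and DDX58 there had 5 of 6 libraries above all those without the FOXA1 siRNA, the exception being replicate 2 of siFOXA1 with siZBED2-2.

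The effect of the FOXA1 siRNA on top of the ZBED2 siRNAs was then set against its effect on siControl, as a difference of log2 fold changes averaged over both ZBED2 siRNAs. For IFIH1 in SCaBER this was -1.09 (SE 0.21, adjusted p = 0.00248), so the rise was smaller in the doubles, and it was the only one of the 10 genes called there, where 2.29% of all genes were called in either direction. In the fit of all 24 libraries the value was -1.1 with an adjusted p of 0.221. DHX58 followed at -1.31 (SE 0.38, adjusted p = 0.0617). It passed in DESeq2 (adjusted p = 0.0271) and, separately, in edgeR with the replicate number as a block (-1.3, adjusted p = 0.0293). It also passed on leaving out any of 4 libraries. DDX58 (-0.56, adjusted p = 0.149), EIF2AK2 (-0.52, adjusted p = 0.252) and ADAR (-0.38, adjusted p = 0.311) had values of the same sign. EIF2AK2 passed without siFOXA1 replicate 1 (adjusted p = 0.0202) or without replicate 2 of siFOXA1 with siZBED2-2 (adjusted p = 0.0163). FOXA1 was at 0 to 3 counts in the 4 SCaBER doubles and at 4 and 6 counts with siFOXA1 alone in that line. With the ZBED2 siRNAs alone it was at 14 and 1 counts (siZBED2-1) and 25 and 20 counts (siZBED2-2), against 20 and 28 with siControl. FOXA1 was thus already below the control with siZBED2-1 alone, and its part in the smaller rise was not tested. The amount of each siRNA in the doubles was not used here, and a smaller effect beside a ZBED2 siRNA and a different siRNA dose cannot be told apart. In RT112 none was called by edgeR or DESeq2 (0.611% of all genes were, and 1 of the 10 had an unadjusted p under 0.05), with IFIH1 at -2.14 (SE 0.74, adjusted p = 0.209). That value passed without siZBED2-2 replicate 2 (-2.49, adjusted p = 0.0434), without replicate 1 of siFOXA1 with siZBED2-2 (-2.7, adjusted p = 0.0433), and with no filter on low counts (adjusted p = 0.0496).

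**Figure D3:**
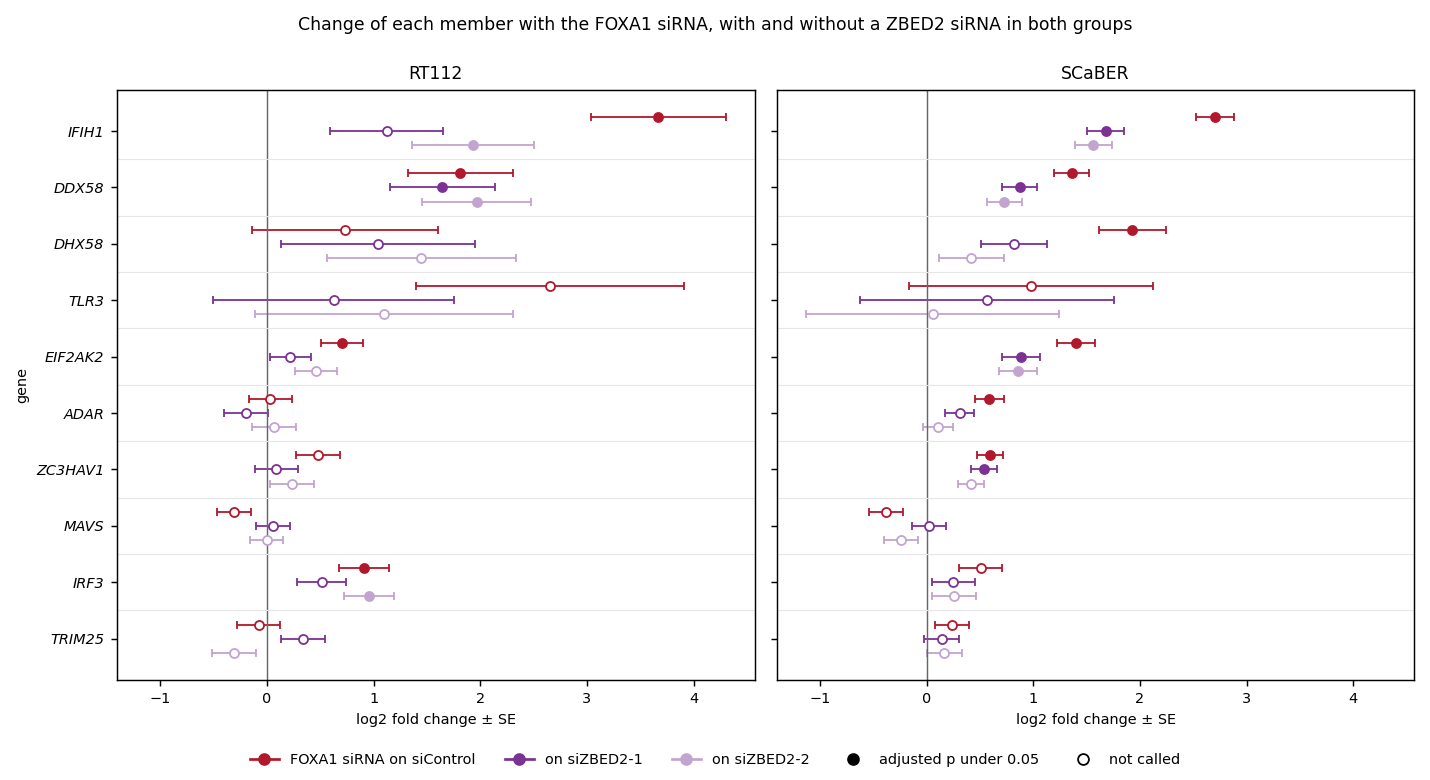
Log2 fold change of the FOXA1 siRNA on 3 backgrounds, siControl, siZBED2-1 and siZBED2-2, for the 10 genes in RT112 and SCaBER, with bars of 1 SE from edgeR and filled points for an adjusted p under 0.05. In SCaBER IFIH1 lies at 2.71 on siControl and at 1.68 and 1.56 on the ZBED2 siRNAs.

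With siControl, 8 of the 10 genes had both SCaBER libraries above both RT112 libraries, where 34.3% of all genes were so ordered. CPM were scaled within each line, so the ratios of means below also carry that scaling. The lines grew in different media, so line and medium cannot be told apart. IFIH1 was 20 times as high (1.98 CPM in RT112 and 39.6 CPM in SCaBER), DDX58 8.77 times, ZC3HAV1 3.79 times, DHX58 3.25 times, TLR3 2.69 times and ADAR 2.04 times. Lower ratios were found for TRIM25 (1.53), IRF3 (1.26), MAVS (0.973) and EIF2AK2 (0.912), and the MAVS and EIF2AK2 libraries of the lines were not ordered in this way. The rise with siFOXA1 was not shown to differ between the lines for any of the 10, since none was called in a fit of all 24 libraries by edgeR or DESeq2 (2.58% of all genes were called in either direction, and 2 of the 10 had an unadjusted p under 0.05). The RT112 effect minus the SCaBER effect was 0.97 for IFIH1 (SE 0.61, adjusted p = 0.484), -1.22 for DHX58 (SE 0.73, adjusted p = 0.456), -0.70 for EIF2AK2 (SE 0.30, adjusted p = 0.24) and -0.56 for ADAR (SE 0.25, adjusted p = 0.282). A rise of DHX58 and ADAR in SCaBER and not in RT112 is therefore a difference in calls and not a tested difference in effect.

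The genes most like IFIH1 over the 12 libraries of a line were named by Pearson's r of log2 CPM, as a description, since libraries of one treatment are not independent points. In SCaBER they were PLAUR (r = 0.987), CHMP4C (0.984), IFIT1 (0.979), MAP2 (0.979) and APOL1 (0.977). Among the 10 genes DDX58 ranked 9 (0.971), followed by EIF2AK2 (0.931) and DHX58 (0.916), and MAVS was the lowest at -0.564. In RT112 the 5 were RRBP1 (0.962), MYOF (0.957), RNF222 (0.956), ANKH (0.955) and BECN1 (0.948), with IRF3 at rank 21 (0.92) and DDX58 at 0.82.

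Other genes of these pathways were taken from lists of pathway genes and described first by their calls for siFOXA1 against siControl. Antiviral RNA-binding and decay effectors, the genes that carry out the response to foreign RNA, rose in 10 of 16 tested in RT112 and in 13 of 16 in SCaBER, with none lower, and had median log2 fold changes of 1.18 and 1.58. IFIT1, which binds RNA with a foreign 5′ end, rose 18.8-fold in RT112 (log2 fold change 4.24, SE 0.62, adjusted p = 1.46e-05, or 3.64 without siFOXA1 replicate 1), and IFIT3 rose by 2.84 and the exonuclease XRN1 by 1.20 on the log2 scale. In SCaBER OAS2, which makes the activator of RNase L, rose 10.9-fold (3.45, SE 0.24, adjusted p = 1.5e-12), IFIT1 9.32-fold and the helicase DDX60L 5.05-fold. The RT112 count was 5 without siControl replicate 2. The medians over all genes were -0.015 and -0.016, and the shares of all genes called higher were 11.3% and 8.71%. Directly against siZBED2-1, siFOXA1 raised 4 of the 16 in RT112 (9.88% of all genes, list median 0.52) and 13 in SCaBER (8.8%, 1.99). Against siZBED2-2 it raised 8 in RT112 (10.9%, 1.35) and 13 in SCaBER (8.37%, 1.78). In the doubles 3 rose over siZBED2-1 and 5 over siZBED2-2 in RT112 (4.89% and 4.44% of all genes). In SCaBER 11 and 10 did (3.05% and 1.65%).

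Signalling partners of the RIG-I-like receptors had 2 higher and 2 lower of 18 tested in RT112 and 3 higher and 1 lower of 21 in SCaBER. Of all genes, 11.3% were higher and 11.9% lower in RT112 and 8.71% and 9.12% in SCaBER. The medians of the list were 0.255 and 0.252. ZNFX1, an RNA helicase that acts with MAVS, rose in both lines (0.89, adjusted p = 0.000564 in RT112 and 1.19, adjusted p = 3.26e-09 in SCaBER), and PCBP2, which promotes degradation of MAVS, fell in both (-0.78, adjusted p = 0.000167 and -0.66, adjusted p = 0.000862). USP18, a negative regulator of interferon signalling, rose 10.01-fold in SCaBER (3.32, SE 0.31, adjusted p = 6.39e-10), and the kinase IKBKB rose by 1.27 in RT112 (adjusted p = 0.01). Both RT112 counts of this list went from 2 to 1 without either siControl library or without siFOXA1 replicate 2, when IKBKB was lost at adjusted p of 0.0749 to 0.146.

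The list of TLR3 pathway and endosomal nucleic acid receptor genes also held MYD88 and genes of other receptors. TLR3 itself was not in it and was not called with siFOXA1 in either line. Of the genes tested, 0 of 6 were higher and 1 lower in RT112, and 3 of 7 higher and 1 lower in SCaBER. The medians of the list were 0.181 and 0.926. The shares of all genes higher and lower were 11.3% and 11.9% in RT112 and 8.71% and 9.12% in SCaBER. The lower gene was the kinase IRAK1 in both lines (-1.04, adjusted p = 0.000282 and -0.47, adjusted p = 0.0112), which acts with MYD88 rather than with TLR3. In SCaBER UNC93B1, the chaperone of endosomal receptors, rose by 0.93 (adjusted p = 6.49e-05) and the adaptor MYD88 by 1.74 (adjusted p = 0.000342), and the TLR3 adaptor TICAM1 in RT112 had a log2 difference of 1.28 (adjusted p = 0.0995). IRAK1 in SCaBER was lost without siControl replicate 1 (adjusted p = 0.238) or siFOXA1 replicate 2 (adjusted p = 0.0706), and MYD88 without siFOXA1 replicate 2 (1.02, adjusted p = 0.0736).

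Around PKR, 2 of 11 genes were higher in RT112, and 4 were higher and 1 lower of 11 in SCaBER, with medians of 0.0771 and 0.347. These stand beside 11.3% higher among all genes in RT112 and 8.71% higher and 9.12% lower in SCaBER. PPP1R15A (GADD34), which directs removal of the phosphate that PKR puts on eIF2 alpha, rose in both (1.23, adjusted p = 0.00245 and 1.12, adjusted p = 4.18e-05), as did EIF2B5 in RT112 (1.27, adjusted p = 1.44e-05) and the PKR inhibitor DNAJC3 in SCaBER (0.84, adjusted p = 0.000226). EIF2AK1, another eIF2 alpha kinase, fell in SCaBER (-0.54, adjusted p = 0.00172). PPP1R15A in RT112 was lost without siControl replicate 2 (adjusted p = 0.0584) or siFOXA1 replicate 2 (adjusted p = 0.102).

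Other double-stranded RNA-binding and editing proteins had 1 higher and 5 lower of 12 tested in RT112 and 2 higher and 5 lower of 12 in SCaBER, with medians of -0.387 and -0.513. DROSHA, which cuts microRNA precursors, fell by 0.96 in RT112 (adjusted p = 0.00575) and by 1.16 in SCaBER (adjusted p = 5.49e-05), and the helicase DHX9 fell by 0.66 (adjusted p = 0.00686) and 0.73 (adjusted p = 9.22e-05). DICER1, which cuts duplex RNA into small RNA, fell by 0.61 in RT112 (adjusted p = 0.00763), and PNPT1, a mitochondrial ribonuclease, rose 3.75-fold in SCaBER (adjusted p = 1.75e-08). In RT112 5 lower became 2 without siFOXA1 replicate 2, when DHX9 (adjusted p = 0.215) and DICER1 (adjusted p = 0.163) were lost, and 3 without siControl replicate 1, when DICER1 was at 0.0716. The shares of all genes called higher were 11.3% and 8.71%, and those called lower were 11.9% and 9.12%. With siZBED2-1 against siControl the list median in RT112 was -0.33, with 4 lower (4.45% of all genes). Directly against siZBED2-1, siFOXA1 gave a median of 0.12 in RT112, with 1 higher and 2 lower (9.88% and 10.5% of all genes). Against siZBED2-2 it gave -0.433 there, with 1 higher and 5 lower (10.9% and 11.7%). In SCaBER siFOXA1 against siZBED2-1 gave -0.425, with 1 higher and 5 lower (8.8% and 9.15%).

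Cytosolic DNA sensing had 2 higher and 1 lower of 9 in RT112 and 3 higher of 10 in SCaBER, with medians of -0.129 and 0.135. In the same comparisons 11.3% of all genes were higher and 11.9% lower in RT112 and 8.71% were higher in SCaBER. SAMHD1, which lowers cellular nucleotides, rose in both (0.70, adjusted p = 0.0272 and 1.76, adjusted p = 1.9e-10), and in SCaBER ZBP1, a receptor for Z-form nucleic acid, rose by 3.79 (SE 0.87, adjusted p = 0.00188) and AIM2 by 1.26 (adjusted p = 3.52e-06). The RT112 count of 2 higher was 0 without either siControl library and 1 without either siFOXA1 library, and it was 0 with scaling by library size alone. ZBP1 was lost without SCaBER siFOXA1 replicate 2 (adjusted p = 0.0664), and its log2 difference was 3.0 without siControl replicate 1 and 5.59 without siControl replicate 2.

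Of 8 interferon genes, none had a count in any RT112 library. In SCaBER IFNB1, IFNL2 and IFNL3 were counted only with siFOXA1 alone, at no more than 4 counts a library. IFNE reached 9 counts with siFOXA1 and IFNK 5 counts with siZBED2-2. IFNL1, a type III interferon made by epithelial cells, was the only 1 of the 8 that passed the filter on low counts in SCaBER. It had 7 and 0 counts with siControl, 2 and 8 with siZBED2-1, 0 and 12 with siZBED2-2, 44 and 39 with siFOXA1, 31 and 37 with siFOXA1 and siZBED2-1 and 17 and 13 with siFOXA1 and siZBED2-2. All 6 libraries with the FOXA1 siRNA were above all 6 without it, where 3.42% of all genes in SCaBER were so separated. The margin was small, with the closest libraries at 13 counts (2.723 CPM) and 12 counts (1.922 CPM). With siFOXA1 the difference from siControl was 3.68 on the log2 scale (SE 1.12, edgeR adjusted p = 0.0178). That call was lost without siControl replicate 2 (2.73) and in a fit of all 24 libraries (adjusted p = 0.131). Without siControl replicate 1 the difference was 8.51. Of the libraries without the FOXA1 siRNA, 1 of 6 had 10 or more counts, so IFNL1 passed the filter on low counts through the groups where it was high.

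**Figure D4:**
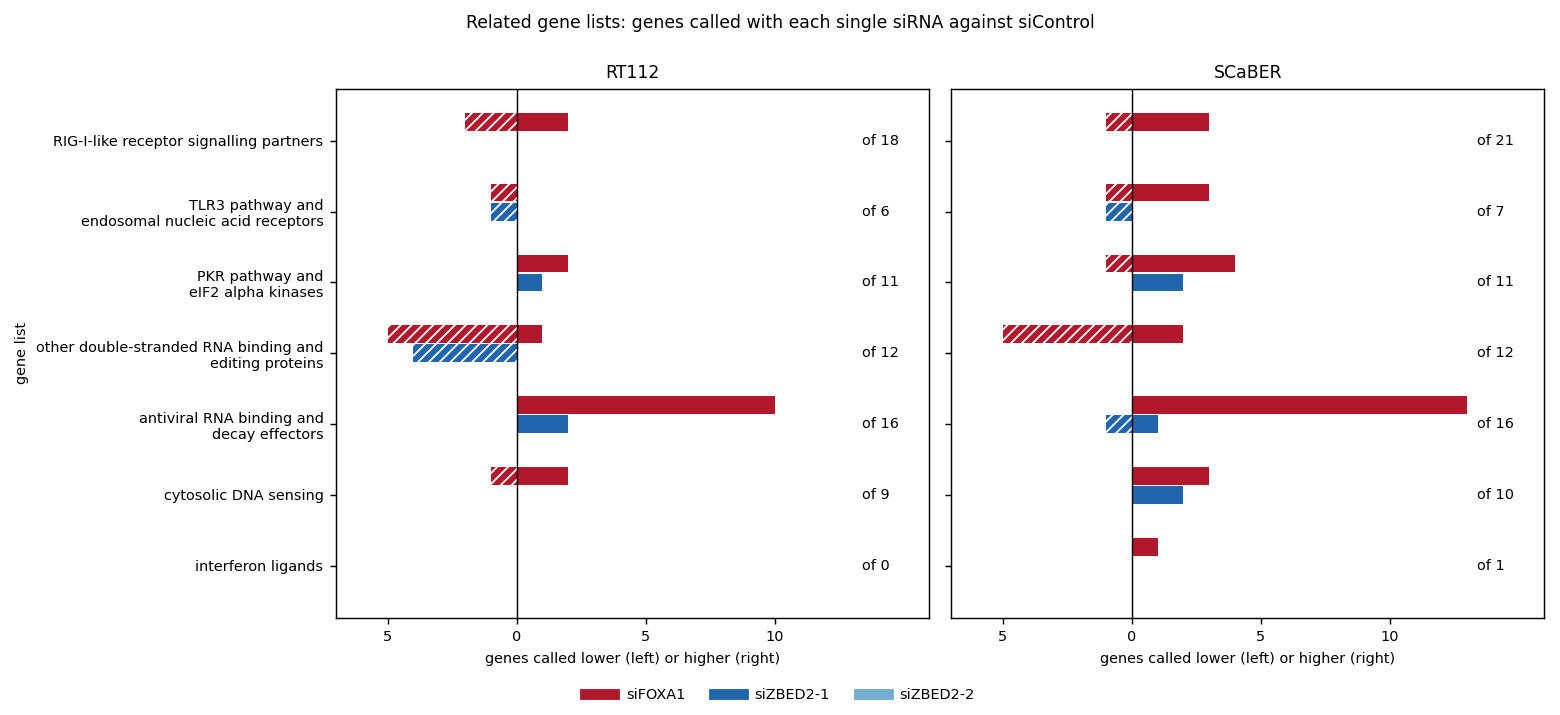
Number of genes called higher and lower in each pathway list with siFOXA1, siZBED2-1 and siZBED2-2 against siControl, beside the number tested, in RT112 and SCaBER. Antiviral effectors are called higher with siFOXA1 in 10 of 16 genes in RT112 and 13 of 16 in SCaBER, and no list gene is called with siZBED2-2.

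The siZBED2-1 siRNA, which raised IFIH1 in RT112, also gave calls among these list genes. In RT112 2 of 16 antiviral effectors and 1 of 11 PKR pathway genes were higher, where 4.35% of all genes were higher. In that line 4 of 12 other double-stranded RNA-binding proteins and 1 of 6 genes of the TLR3 and endosomal receptor list were lower. Of all genes, 4.45% were lower. In SCaBER 1 antiviral effector, 2 of 11 PKR pathway genes and 2 of 10 DNA sensing genes were higher, where 2.19% of all genes were higher. There 1 antiviral effector and 1 gene of the TLR3 and endosomal receptor list were lower, where 2.45% of all genes were lower. Partners of the RIG-I-like receptors had no call with siZBED2-1 in either line. With siZBED2-2 no list gene was called by edgeR in either line, with 7 of 72 in RT112 and 5 of 78 in SCaBER at an unadjusted p under 0.05 and 0 called by DESeq2, while 1 antiviral effector was lower in RT112 with the replicate number as a block.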

How the data were processed

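The authors deposited raw read counts per gene for 24 libraries, made with the Lexogen QuantSeq FWD kit, which reads mRNA from its 3′ end. Per the labels and the file headers, reads were checked with raw-qc 2.1.0 and FastQC 0.11.8, trimmed with TrimGalore 0.6.2 (minimum quality 20, minimum length 10), and aligned and counted with STAR 2.6.1a on hg38 with GENCODE release 29. No molecular identifiers are stated, so intervals and floors cover counting error only, and 3′ counts depend on which transcript end is used. Of its 58721 genes, 34121 were without any count.

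Counts were tested in R 4.3.3 with edgeR 4.0.16 (TMM, filterByExpr with a minimum count of 10 and a minimum total of 15, glmQLFit and glmQLFTest, limma 3.58.1), with a mean per group over the 12 libraries of a line and Benjamini-Hochberg adjustment over 13264 genes in RT112 and 13129 in SCaBER. The difference between lines used all 24 libraries and 14823 genes. Calls needed an adjusted p under 0.05, and SE is the log2 fold change divided by the square root of F. CPM used TMM-scaled totals within a line, and log2 CPM a prior count of 2. Libraries held 4425404 to 6119210 counts, and edgeR put the biological variation at 25.8% (RT112) and 21.6% (SCaBER). The fits were tested on simulated data.

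The 10 genes are all named. Of each pathway list, the 3 genes with the smallest p for siFOXA1 against siControl in a line are named, and of the genes like IFIH1 the 5 with the highest r. The genes and the lists were chosen with earlier results of these data known. Pathway lists were the partners of RIG-I-like receptors, the TLR3 pathway with other endosomal receptors, and the PKR and DNA sensing pathways. The others were other double-stranded RNA-binding proteins, antiviral effectors and interferon ligands.

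Replicate numbers mark an experiment batch in the labels and so pair the libraries. Deviations from group means of same-numbered libraries had correlations of 0.00519 to 0.0622 in RT112 and -0.0135 to 0.0707 in SCaBER over 15 pairs of groups per line, so the pairing comes from the labels alone. Alternatives were DESeq2 1.42.0, its size factors in edgeR, library size alone, no filter on low counts, the replicate number as a block, all 24 libraries in 1 fit, and leaving out each library, where the lone library of a group was assumed to vary like those of other groups. A count of 3 was taken as the floor.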

Additional observations from a re-analysis of the deposited data

Results flagged for a closer look

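IFIH1 in SCaBER rose less with the FOXA1 siRNA beside a ZBED2 siRNA than beside siControl, a difference of log2 fold changes of -1.086 by a test of the difference itself (edgeR, adjusted p = 0.00248). In a fit of all 24 libraries by edgeR the adjusted p was 0.221. A smaller effect beside a ZBED2 siRNA and a different siRNA dose in the doubles cannot be told apart.

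With siZBED2-1 against siControl, 3 genes had both libraries above the controls in RT112 and both below them in SCaBER, an ordering found in 3.52% of the 11763 genes tested in both lines. The log2 differences were 2.045 and -0.7118 for TLR3, 0.157 and -0.1756 for EIF2AK2, and 0.3259 and -0.3145 for ADAR. None of the 6 values passed the test in its own line, and the difference between the lines was not tested for this siRNA. TLR3 rests on a few counts per library.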

How the results depend on the processing

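Of 174 log2 fold changes of single genes, 79 passed the test, none of these changed sign, and 36 lost the call under at least 1 alternative, 33 of them on leaving out a library. With 2 libraries per group these calls rest on few samples, and genes of a few counts such as TLR3 are poorly resolved. The larger changes in the count of the 10 genes called were as follows, and the cause was not tested. With the replicate number as a block it was 2 for siZBED2-1 against siControl in RT112 (1 without the block), 2 for siZBED2-1 against siZBED2-2 in RT112 (0), and 2 for the FOXA1 siRNA effect on ZBED2 siRNAs minus that on siControl in SCaBER (1); beyond the calls given with it in the text, the block changed no other call of the 10 genes. That last count was 2 with DESeq2 and 0 with all 24 libraries in 1 fit. With library size alone it was 1 for siFOXA1 against siZBED2-1 in RT112 (2). All 24 libraries in 1 fit gave 5 for siFOXA1 in RT112 (4), 2 for the first double in RT112 (1) and 2 for it in SCaBER (4), and no filter gave 1 for the effect difference in RT112 (0). Library size alone moved the median of all genes with siFOXA1 to -0.11 in RT112 and -0.092 in SCaBER, and the share of calls that were higher from 48.6% to 38.6% and from 48.9% to 39.9%.

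Leaving out 1 library gave counts in RT112 of 2 to 4 for siFOXA1, 0 to 1 for siZBED2-1, 0 to 2 for siFOXA1 against siZBED2-1, 0 to 2 for the first double, 0 to 3 for the second double, 0 to 1 between the ZBED2 siRNAs and 0 to 1 for the effect difference, and in SCaBER 1 to 3 for the second double and 1 to 3 for the effect difference.

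The values that changed sign had not passed. With library size alone they were, in RT112, ADAR with siFOXA1 at -0.0615, EIF2AK2 with siZBED2-2 at 0.00445, MAVS and ZC3HAV1 in the first double at -0.0377 and -0.00345 and ADAR in the second at -0.0273, and in SCaBER IRF3 with siZBED2-1 at -0.0229 and MAVS in the first double at -0.0149. With all 24 libraries in 1 fit they were MAVS in the second double of RT112 at 0.00463 and DDX58 with siZBED2-1 in SCaBER at 0.0129.

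On leaving out 1 library, RT112 values with siFOXA1 ran from -0.118 to 0.174 for ADAR and -0.199 to 0.0446 for TRIM25. With siZBED2-1 they ran from -0.298 to 0.193 for DDX58, -1.3 to 0.217 for DHX58 and -0.237 to 0.18 for MAVS. With siZBED2-2 they ran from -0.301 to 1.94 for IFIH1, -1.14 to 0.562 for DHX58, -5.03 to 1.44 for TLR3, -0.225 to 0.123 for EIF2AK2, -0.000684 to 0.399 for MAVS, -0.315 to 0.17 for IRF3, -0.0103 to 0.266 for ZC3HAV1 and -0.18 to 0.0597 for TRIM25. In the first double they ran from -0.424 to 1.22 for TLR3, -0.221 to 0.563 for EIF2AK2, -0.444 to 0.0321 for ADAR, -0.00276 to 0.127 for MAVS and -0.115 to 0.274 for ZC3HAV1, and in the second from -0.294 to 0.353 for ADAR, -0.0358 to 0.0314 for MAVS and -0.129 to 0.527 for ZC3HAV1. SCaBER values with siZBED2-1 ran from -0.136 to 0.122 for DDX58 and -0.0989 to 0.155 for IRF3, and with siZBED2-2 from -0.162 to 0.0137 for DDX58, -1.75 to 0.228 for TLR3 and -0.131 to 0.126 for ADAR. In its first double they ran from -0.663 to 1.19 for TLR3 and -0.0735 to 0.0866 for MAVS, and in the second from -1.93 to 1.34 for TLR3, -0.0327 to 0.232 for ADAR and -0.0447 to 0.497 for IRF3.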

Other observations

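In SCaBER replicate 2 was above replicate 1 in 5 of 6 treatment groups for IFIH1, DHX58, EIF2AK2 and TRIM25, in 1 of 6 for ZC3HAV1 and in 0 of 6 for MAVS. In RT112 replicate 2 was above replicate 1 in 1 of 6 groups for IFIH1, DDX58, EIF2AK2 and ZC3HAV1 and in 0 of 6 for ADAR and IRF3. The part of the batch in the results was tested only through the fits with the replicate number as a block.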
